A study of Drosophila melanogaster with 24 samples.

Results

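Female-labelled brains taken 1 hr after traumatic brain injury (TBI) were compared with female-labelled control brains. They make up 6 of the 24 libraries of the study, 3 in each group, and were chosen by their sample labels and by nothing measured. The count table holds 16995 genes, and 5918 of them had enough reads to be tested. Transcript levels were measured in single brains of w1118 flies, a white-eyed laboratory strain, of both sexes, to ask which genes respond in the first hours. Beside controls, injured flies were sampled after 1 hr, 2 hr and 4 hr. TBI was a single strike of a spring-driven high impact trauma device that throws a vial of flies onto a pad, so the whole body took the blow and not the head alone. All flies were mated adults in the second week of life, the labels name no transgene in any group, and the controls carry no treatment label. Each library was made from 15 ng of total RNA with the QuantSeq 3′ mRNA-Seq kit, which reads the ends of polyadenylated transcripts.

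Flies answer wounds and infection with innate immunity. The Toll and Imd pathways run from secreted or membrane receptors for microbial products to NF-κB factors such as Rel, which switch on genes of antimicrobial peptides, while JAK-STAT and JNK signalling act in stress and wound responses. Damaged membranes and proteins are removed by the endosomal sorting complexes (ESCRT), by autophagy and by the proteasome, and mitochondria supply the energy for ion pumping and repair.

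The 6 libraries were shallow and very unequal. Total counts were 238289, 1193051 and 52388 in control replicates 1, 2 and 3, and 1683383, 55416 and 219707 in 1 hr replicates 1, 2 and 3. Replicate 2 therefore held 80.4% of all control counts and replicate 1 held 86.0% of all 1 hr counts. Levels below are CPM, the counts of a gene scaled to the library total with TMM factors, on which 1 read was worth 0.722 CPM in the deepest library and 15.2 CPM in the shallowest, and a gene without a read can have lain at up to 3 reads, or 2.17 to 45.6 CPM. Such floors and all counting intervals cover counting error only. Because the kit counts transcript ends, a CPM stands for transcripts without a correction for length.

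The library of 1 hr replicate 1 stood apart from the other 5 in MRE16 and in its sums of fat body and neuronal transcripts. MRE16, a long noncoding RNA listed by RefSeq as CR34335, took 18% of its counts, against 1.11% to 5.22% in the others. The transcripts of 7 fat body genes, which include the yolk proteins, summed to 34858 CPM there and to 1474 to 6656 CPM in the others. Of that sum, the yolk proteins Yp1, Yp2 and Yp3 were 21383, 9352 and 3453 CPM. Lsp2, another gene of the list, went the other way, at 481 CPM there and 742 to 1705 CPM in the others. The 8 neuronal genes, such as brp and nSyb, summed to 1970 CPM in 1 hr replicate 1 and to 3705 to 5764 CPM in the others. Of these genes, elav was at 170 CPM there but at 155 CPM in control replicate 2, and at 289 to 378 CPM in the rest. Control replicate 2 also lay near 1 hr replicate 1 in the summed level of 24 nuclear pore genes. That sum was 246 CPM in control replicate 2, 269 CPM in 1 hr replicate 1 and 772 to 1235 CPM in the rest. All 8 neuronal and all 9 glial markers tested were read in these brains, and of 5 ovary markers only 1 had a read. In single-brain libraries of bulk RNA, fewer cells of a type and less RNA per cell cannot be told apart. Because 1 hr replicate 1 stood apart, values without it are given beside many of those that it moved.

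The sex labels were also checked. roX1, a noncoding RNA of the male dosage compensation complex that is nearly absent from female tissue, was at 900, 1235 and 790 CPM in the controls and at 695, 1017 and 820 CPM at 1 hr. The male-labelled brains at 1 hr ranged from 852 to 997 CPM. roX1 thus went against the female label in all 6 libraries, and in the female-labelled series it was low only in 2 hr replicate 2 (5.66 CPM) and 4 hr replicate 2 (76.3 CPM). The groups are called female-labelled for this reason.

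No gene differed between 1 hr and control after adjustment. The edgeR quasi-likelihood test called 0 of 5918 genes (0%) at an adjusted p under 0.05 with an absolute log2 fold change (log2FC) over 1, and the smallest adjusted p was 0.9999. At an unadjusted p under 0.05 and the same limit on the fold, 82 genes were higher at 1 hr (1.39% of those tested) and 16 were lower (0.27%). At that threshold DESeq2 gave 78 and 15 genes, and it too called 0 after adjustment. The genes described below are thus differences in level that did not pass the adjusted test, and the adjusted p of each of them in this edgeR fit was at least 0.9999. In counts of genes, higher and lower mean past the unadjusted threshold. A log2FC is given with its standard error (SE). The common biological coefficient of variation of the 12 female-labelled libraries in the fit was 0.790. It was 0.471 for the 6 libraries compared and 0.516 without 2 hr replicate 2 and 4 hr replicate 2, and without those 2 libraries 119 genes were higher and 28 lower. The filter kept 2676 genes in the first of these fits and 4726 in the second, against 5918, so the sets of genes differ.

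**Figure D1:**
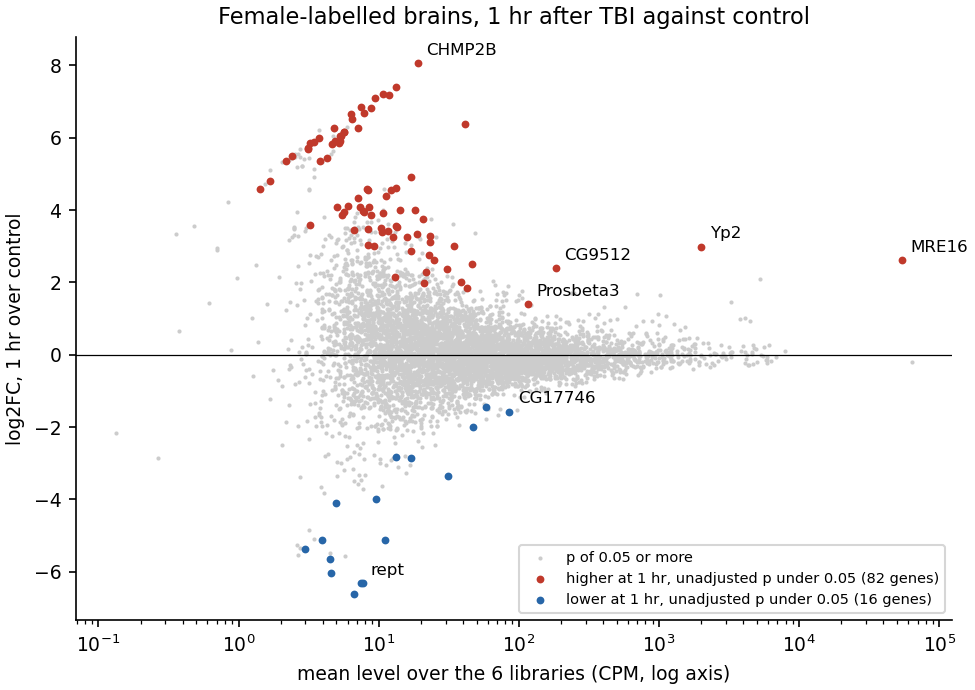
Change at 1 hr after TBI against level, 1 point a gene, with the mean of the 6 libraries in CPM on a log axis and the fitted log2FC on the vertical axis. The 82 genes higher (red) and 16 genes lower (blue) at an unadjusted p under 0.05 lay mostly at low levels, and 4 of them averaged at least 100 CPM.

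The unadjusted calls were mostly genes of few reads. The 82 higher genes had a median level of 8.79 CPM, against 33.7 CPM for all genes tested, and 31 of them had no read in any control. Only 6 of them were read in all 3 controls. Of their 1 hr reads 97.6% came from replicate 1, against 86.0% of all 1 hr counts. That share mostly describes MRE16, which had 310987 reads at 1 hr, where the 82 genes had 321891, 3082 and 4717 in replicates 1, 2 and 3. By gene, 63 of the 82 had their highest level in 1 hr replicate 1, as did 28.2% of all genes tested. The 16 lower genes had a median level of 8.61 CPM, and 7 of them had no read at 1 hr. Only 4 of the 98 averaged at least 100 CPM, all of them higher: MRE16, Yp2, CG9512 and Prosbeta3.

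Leaving out a library changed how many genes passed and in which direction most of them lay. Without 1 hr replicate 1, 20 genes were higher and 35 lower, and 16 of the 82 and 4 of the 16 genes were still among them. Without control replicate 2, the deepest control, 29 were higher and 7 lower. Without 1 hr replicate 3 the numbers were 160 and 50, and without control replicate 1 they were 146 and 23. The excess of higher over lower genes was present in every set except the one without 1 hr replicate 1. Of the genes named below, CG1441, CHMP2B, CG2453 and cv-d were past the unadjusted threshold with each of the 6 libraries left out in turn, and the others that passed with all libraries lost the call, or had too few reads to be tested, in at least 1 of these fits.

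**Figure D2:**
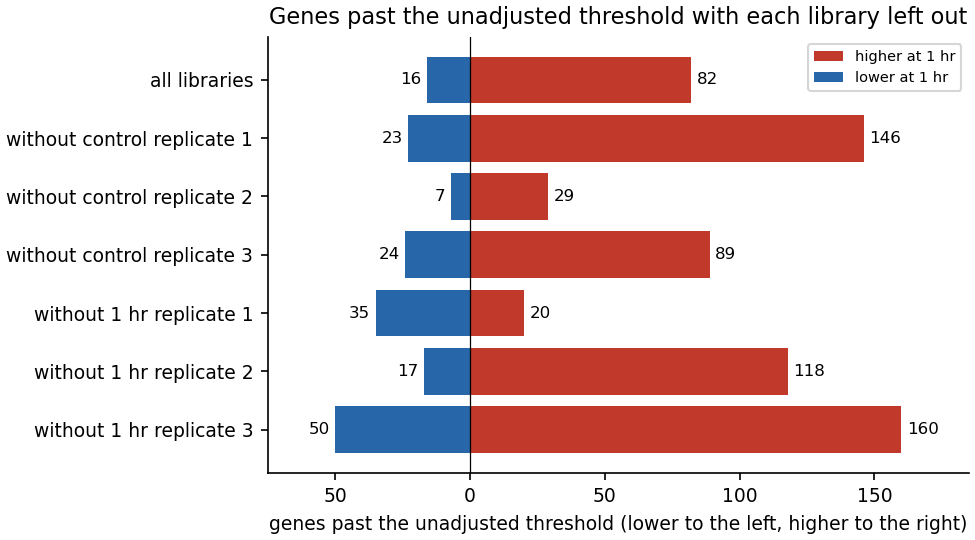
Genes past the unadjusted threshold with all 12 female-labelled libraries in the fit and with each library of the comparison left out in turn. Bars to the right count genes higher at 1 hr and bars to the left genes lower, and only the fit without 1 hr replicate 1 had more lower (35) than higher (20) genes.

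Among genes whose groups did not overlap, those of smallest p were read in every brain at 1 hr and in no control. CG1441, a gene with no common name in the files, had 0 reads in each control and 52, 2 and 3 reads at 1 hr, which is 37.5, 29.9 and 12.7 CPM. Over the pooled reads this was at least 14.4-fold higher at 1 hr, with the control group set at a floor of 3 reads. CHMP2B, a subunit of the ESCRT-III complex that pinches off membranes, had 0 reads in each control and 132, 1 and 1 reads at 1 hr, or 95.3, 15.0 and 4.23 CPM. The bound was at least 33.8-fold, and nearly all of its reads lay in replicate 1. CG2453, listed by RefSeq as Coq5, an enzyme of ubiquinone synthesis, had 0 reads in each control and 34, 2 and 4 at 1 hr, at least 10.1-fold more.

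More genes of the same kind followed. CG31075 had 62, 1 and 1 reads at 1 hr, CG18661 had 29, 1 and 4, mAChR-A, a muscarinic acetylcholine receptor, had 33, 1 and 2, and mtTFB2, a transcription factor of mitochondrial DNA, had 5, 1 and 3. None of them had a read in a control, and their bounds ran from at least 2.27-fold for mtTFB2 to at least 16.2-fold for CG31075. Outside replicate 1 these differences are thus of 1 to 4 reads a library. Without 1 hr replicate 1, CG1441, CHMP2B and CG2453 were still past the unadjusted threshold, CG31075 was not, and mAChR-A no longer had enough reads to be tested. Across the whole table, 40 genes had at least 10 reads in 1 hr replicate 1 and none in any control, and 7 of those were read in both other 1 hr libraries. The reverse, at least 10 reads in control replicate 2 and none at 1 hr, held for 5 genes.

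Syx17, mtm and Rpt2 had at most 3 reads in all controls together. Syx17, the SNARE protein through which autophagosomes fuse with lysosomes, had 0, 1 and 0 reads in controls and 35, 1 and 2 at 1 hr, a pooled ratio of 28.8 (95% counting interval 4.86 to 1167). mtm, a phosphatase of membrane phosphoinositides, had 1, 1 and 0 reads and then 64, 2 and 1, a pooled ratio of 25.4 (6.76 to 214). Rpt2, an ATPase of the regulatory cap of the proteasome, had 1, 2 and 0 reads and then 20, 1 and 11, a ratio of 8.08 (2.53 to 41.2). Rpt2 is the only one of these 3 whose highest level at 1 hr was not in replicate 1. It was past the unadjusted threshold without 1 hr replicate 1, but not without control replicate 2 (log2FC 3.12) or without 1 hr replicate 3 (2.68), against 3.52 with all libraries. mtm was not past it without 1 hr replicate 1 (3.02, against 4.00), nor without control replicate 2 (3.23), and Syx17 could not be tested without 1 hr replicate 1.

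Among genes with a read in all 6 libraries, cv-d, CG9512 and Prosbeta3 were higher at 1 hr without overlap. cv-d, a lipoprotein of the vitellogenin family that carries BMP signals in the wing, was at 27.0, 3.19 and 15.2 CPM in controls and at 100, 74.8 and 59.2 CPM at 1 hr. Every 1 hr brain lay above every control, and the log2FC was 2.51 (SE 0.844). The value was 2.25 without 1 hr replicate 1 and 1.82 without control replicate 2, and past the unadjusted threshold in both fits.

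CG9512, which has no common name in the files, was at 65.6, 33.5 and 91.1 CPM in controls and at 541, 194 and 182 CPM at 1 hr. The groups did not overlap, replicate 1 was well above the other 1 hr brains, and the log2FC was 2.39 (SE 0.948). It was 1.66 without that library, and no longer past the unadjusted threshold. Prosbeta3, a subunit of the catalytic core of the proteasome, was at 92.7, 59.8 and 30.4 CPM in controls and at 178, 224 and 110 CPM at 1 hr. Here the highest brain was replicate 2 and the log2FC was 1.40 (SE 0.578), or 1.35 without replicate 1, where it was no longer past the threshold.

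At higher levels few genes separated the groups upward. Of 1377 genes averaging at least 100 CPM, 22 had all 1 hr values above all controls (1.6%), and 58 had them all below (4.21%). Over all genes tested these shares were 3.3% and 3.8%. Among the 22 were fray, a kinase that sets chloride transport and is needed in glia that wrap axons, at 65.6, 12 and 76.0 CPM in controls and 96.0, 150 and 203 CPM at 1 hr. Its log2FC was 1.67 (SE 1.20), and 1.79 and past the threshold without 2 hr replicate 2 and 4 hr replicate 2 in the fit. rb, a subunit of the AP-3 adaptor that sorts proteins to lysosomes and pigment granules, had a log2FC of 0.78 (SE 0.523), and nsl1, a subunit of a chromatin complex, had 0.86 (SE 0.744).

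**Figure D3:**
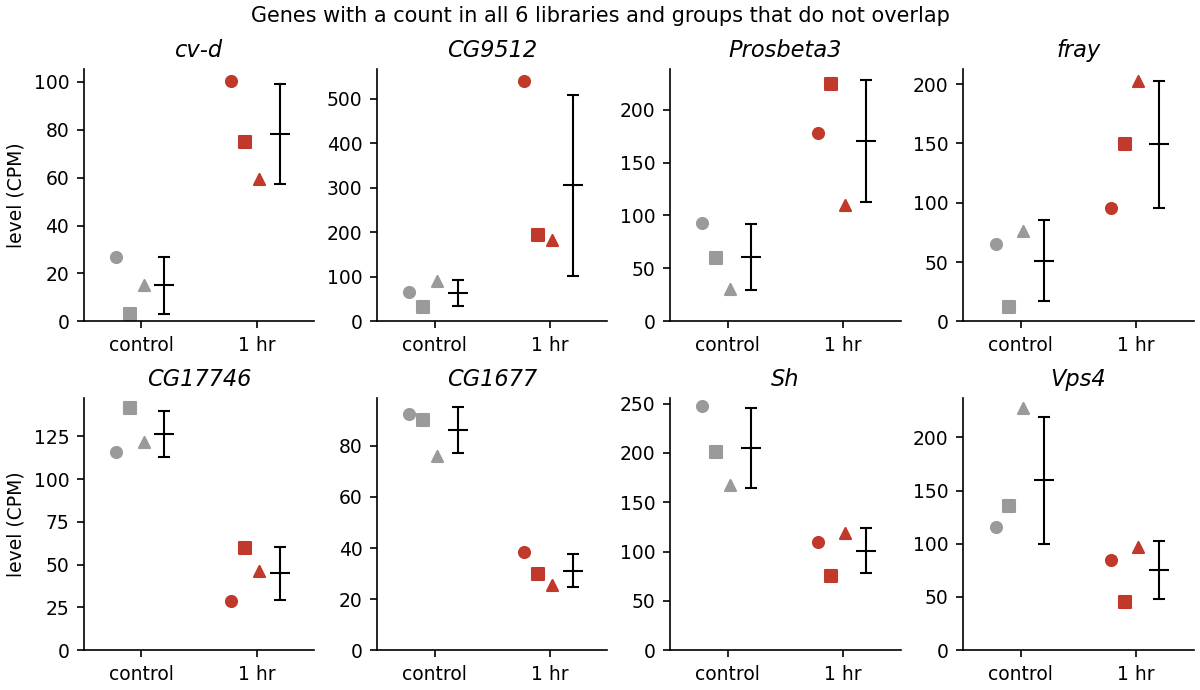
Level in CPM of 8 genes with a read in all 6 libraries and groups that did not overlap, in control (grey) and 1 hr (red) brains. Circles, squares and triangles are replicates 1, 2 and 3, and the bar is the mean with its SD (n = 3): the upper 4 genes were higher at 1 hr, as cv-d (78.1 against 15.1 CPM), and the lower 4 were lower, as CG17746 (45.1 against 126 CPM).

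Lower at 1 hr were several genes that ended without a read. rept, the AAA ATPase Reptin of chromatin remodelling complexes, had 2, 10 and 2 reads in controls and 0 in each 1 hr brain, at least 6.16-fold fewer over the pooled reads, and no longer past the threshold without 1 hr replicate 1. CG34353 had 1, 10 and 1 reads and then 0 in each (at least 5.28-fold fewer). cos, the kinesin-like Hedgehog pathway protein Costal-2, had 3, 4 and 2 reads and then 0 in each (at least 3.96-fold fewer). Since replicate 1 was the deepest library, absence at 1 hr is best measured there, where 3 reads make 2.17 CPM. dpr18, a cell-surface protein of neurons, had 4 reads in all controls together and none at 1 hr, a bound of 1.76-fold, and was not past the threshold without 1 hr replicate 1. CG34353 and cos could not be tested without that library.

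CG17746 and CG1677 were lower at moderate levels. CG17746 was at 116, 142 and 122 CPM in controls and at 28.9, 59.8 and 46.5 CPM at 1 hr, a log2FC of -1.57 (SE 0.604). CG1677 was at 92.7, 90.1 and 76.0 CPM in controls and at 38.3, 29.9 and 25.4 CPM at 1 hr, a log2FC of -1.45 (SE 0.606). Neither gene has a common name in the files, and in both the spread within each group was smaller than the gap between the groups. Since 1 read was worth 15.2 CPM in control replicate 3 and 15.0 CPM in 1 hr replicate 2, their levels there rest on few reads. In 1 hr replicate 2 the level of CG1677 lay under the floor of 44.9 CPM, so the closeness within the groups was not well measured. Without 1 hr replicate 1 CG17746 and CG1677 were at -1.28 and -1.68, and CG1677 alone of them was past the threshold. Rcd5, a subunit of the same chromatin complex as nsl1, had 3, 17 and 10 reads and then 9, 0 and 1, a log2FC of -3.35 (SE 1.28). The value of Rcd5 ranged from -3.99 to -1.37 with each library left out, and the last of these, without control replicate 3, was not past the threshold. Cpsf100, a subunit of the complex that cuts transcripts before polyadenylation, had 4, 77 and 1 reads and then 8, 0 and 1, a log2FC of -2.84 (SE 1.15). Without control replicate 2, which held most of its reads, it was at -1.73 and not past the threshold.

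Of the 58 genes of at least 100 CPM with all 1 hr values below all controls, 5 named by the size of their log2FC are given here. Sh, the Shaker potassium channel, was at 247, 201 and 167 CPM in controls and at 110, 74.8 and 118 CPM at 1 hr, a log2FC of -1.0 (SE 0.525). Rab26, a GTPase of secretory vesicles, was at 100, 167 and 152 CPM and then at 37.5, 74.8 and 80.4 CPM, a log2FC of -1.16 (SE 1.13). fend, a protein of motor axon guidance, was at 212, 187 and 228 CPM and then at 49.1, 150 and 114 CPM, a log2FC of -1.06 (SE 0.739). Vps4, the ATPase that takes ESCRT-III apart, had a log2FC of -1.0 (SE 0.559), and Pkc53E, a protein kinase C, had -0.97 (SE 0.643). None of these 5 passed the unadjusted threshold, and each kept its sign with each library left out. Without 2 hr replicate 2 and 4 hr replicate 2 in the fit, Rab26 (-1.19) and fend (-1.10) passed it.

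Most immune peptide genes had a positive log2FC at 1 hr, but none passed the unadjusted threshold with the 12 libraries, and most of the difference lay in 1 hr replicate 1. The list holds 25 genes, of which 21 were tested. None of the 21 passed the unadjusted threshold, 19 had a positive log2FC and their median was 1.07, against 3146 of 5918 and a median of 0.05 for all genes. Of the 21 genes, 15 had their highest level in 1 hr replicate 1, as did 28.2% of all genes tested. Without that library 14 of 21 were positive and the median was 0.22. The summed level of the list was 13373, 9931 and 10982 CPM in controls and 21718, 12116 and 10932 CPM at 1 hr, a mean difference of 0.33 on the log2 scale (exact permutation test, two-sided, p = 0.6, where 0.1 is the smallest p possible with 3 against 3).

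Single peptide genes showed the same split. IM4, one of the Toll-dependent short peptides of the blood and named Dso1 by RefSeq, was at 456, 226 and 319 CPM in controls and at 2397, 538 and 224 CPM at 1 hr. Its log2FC was 1.67 (SE 1.1) with all libraries and 0.17 without 1 hr replicate 1. Listericin, an antibacterial peptide, was at 85.0, 140 and 137 CPM in controls and at 404, 150 and 190 CPM at 1 hr, so that the groups did not overlap (log2FC 1.07, SE 0.720, and 0.51 without 1 hr replicate 1). The gap between 140 and 150 CPM was less than 15.0 CPM, the worth of 1 read in 1 hr replicate 2. Of the 21 peptide genes tested only 1, Listericin, was higher without overlap, against 3.3% of all genes. AttC, an attacin, had 2, 3 and 1 reads in controls and 91, 1 and 4 at 1 hr, and CecA2, a cecropin, had 0, 2 and 0 and then 48, 0 and 1. Their log2FCs were 2.81 (SE 1.88) and 3.81 (SE 2.00), and 1.61 and 1.33 without 1 hr replicate 1. AttA had 0 reads in controls and 7, 0 and 1 at 1 hr, too few to be tested.

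The absence of calls among the peptide genes depended on libraries outside the comparison. Without 2 hr replicate 2 and 4 hr replicate 2 in the fit, CecA2 (log2FC 3.82), AttC (3.09), IM4 (1.74) and Listericin (1.14) were past the unadjusted threshold. IM4 (1.90) and Listericin (1.27) were also past it with only the 6 libraries compared.

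The antifungal peptides Drs and Mtk overlapped between the groups. Drs, drosomycin, a target of Toll, was at 448, 285 and 365 CPM in controls and at 459, 419 and 431 CPM at 1 hr, a log2FC of 0.26 (SE 0.780). Mtk, metchnikowin, was at 158, 60.6 and 213 CPM in controls and at 203, 179 and 67.7 CPM at 1 hr, a log2FC of 0.12 (SE 1.1), which turned negative with library size alone as scaling (-0.10).

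Upstream of the peptides, a few pathway genes stood out by unadjusted p. Over all genes tested 1.39% were higher and 0.27% lower. Of 16 Toll pathway genes tested, 2 were higher and 0 lower, with a median log2FC of 0.01. They were grass, a serine protease of the cascade that activates the Toll ligand, with 1, 1 and 0 reads in controls and 71, 0 and 2 at 1 hr, and mop, a phosphatase-like protein of endosomal sorting that promotes Toll signalling, with 0 reads in controls and 20, 0 and 1 at 1 hr (at least 5.30-fold). Neither was read in 1 hr replicate 2. Without 1 hr replicate 1, grass was no longer past the threshold and mop had too few reads to be tested. mop belongs to a list chosen on these samples, so its value is not independent evidence. The 20 genes of the Toll list summed to 838, 701 and 911 CPM in controls and to 978, 942 and 918 CPM at 1 hr. The exact permutation test, two-sided, gave p = 0.1, the smallest possible. The apoptosis list and the list of tubulins and motors also gave 0.1 in this test, among 37 lists, with no adjustment for their number.

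Of 10 Imd pathway genes tested, 1 was higher, against 1.39% of all genes, and 0 lower, with a median of 0.05. It was Tab2, an adaptor of the Tak1 kinase, with 2, 0 and 0 reads in controls and 38, 1 and 6 at 1 hr, or 7.72, 0 and 0 CPM against 27.4, 15.0 and 25.4 CPM (log2FC 3.27, SE 1.38). Its groups did not overlap, as was so in the higher direction for 3.3% of all genes tested. The floor of control replicate 3, 45.6 CPM, lay above every 1 hr level of Tab2, so this separation was not well measured. Without 1 hr replicate 1 the log2FC of Tab2 was 3.08, not past the threshold. Rel, the NF-κB factor of the pathway, was at 104.3, 31.9 and 137 CPM in controls and at 312, 89.7 and 106 CPM at 1 hr (log2FC 1.03, SE 0.986, and 0.20 without 1 hr replicate 1), and only replicate 1 lay above the controls. The 9 peptidoglycan recognition genes tested had 0 calls and a median of -0.18, or -0.57 without 1 hr replicate 1. Among 10 genes of the JAK-STAT pathway and its Turandot stress targets 1 was higher: TotM, with 0 reads in controls and 23, 0 and 1 at 1 hr (at least 6.06-fold), and not past the threshold without 1 hr replicate 1.

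**Figure D4:**
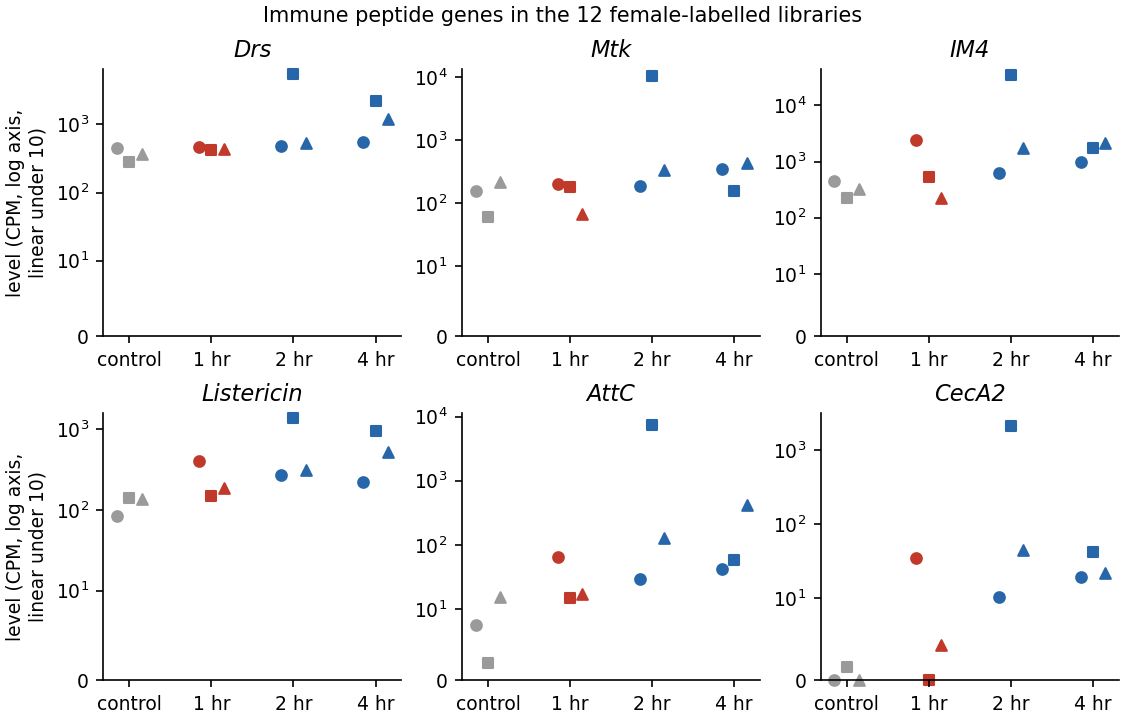
Level of 6 immune peptide genes in the 12 female-labelled libraries, in control (grey), 1 hr (red), and 2 and 4 hr (blue) brains, on a log axis that is linear under 10 CPM. Circles, squares and triangles are replicates 1, 2 and 3: the 1 hr brains overlapped the controls for every gene except Listericin, and 2 hr replicate 2 lay above the rest for each gene. For Listericin the lowest 1 hr level (150 CPM) lay close above the highest control (140 CPM).

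In protein sorting and turnover, single genes were higher in lists with few calls. Over all genes tested 1.39% were higher and 53.2% had a positive log2FC. Of 14 ESCRT genes tested 2 were higher and 0 lower, 11 were positive and the median log2FC was 0.93. Beside CHMP2B this was lsn, an ESCRT-II subunit, with 0, 1 and 0 reads in controls and 29, 0 and 2 at 1 hr, too few to be tested without 1 hr replicate 1. In 10 of the 14 genes the highest level was that of 1 hr replicate 1, and without it the median was -0.05 over 13 genes. Of 29 proteasome subunits 3 were higher and 0 lower, with 20 positive and a median of 0.17. They were Rpt2, Prosbeta3 and Prosbeta2, another core subunit, at 7.72, 11.2 and 0 CPM in controls and 87.3, 15.0 and 8.46 CPM at 1 hr (log2FC 2.29, SE 1.02). Prosbeta2 went to 0.36 without 1 hr replicate 1, and the median of the list went to -0.27. Of 15 autophagy genes tested, 0 passed and the median was 0.16, or -0.29 over 13 genes without 1 hr replicate 1.

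The 80 cytoplasmic ribosomal protein genes tested had 0 calls, 64 positive values (80%, against 53.2% of all genes) and a median log2FC of 0.22. Their highest level was in 1 hr replicate 1 for 63 of the 80, where they summed to 235993 CPM against 130179 to 182983 CPM in the other 5 libraries. Without that library 16 of 80 were positive and the median was -0.27. RpL23A, for example, was at 120, 128 and 106 CPM in controls and at 842, 194 and 97.3 CPM at 1 hr (log2FC 1.70, SE 0.957), and at 0.25 without it.

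**Figure D5:**
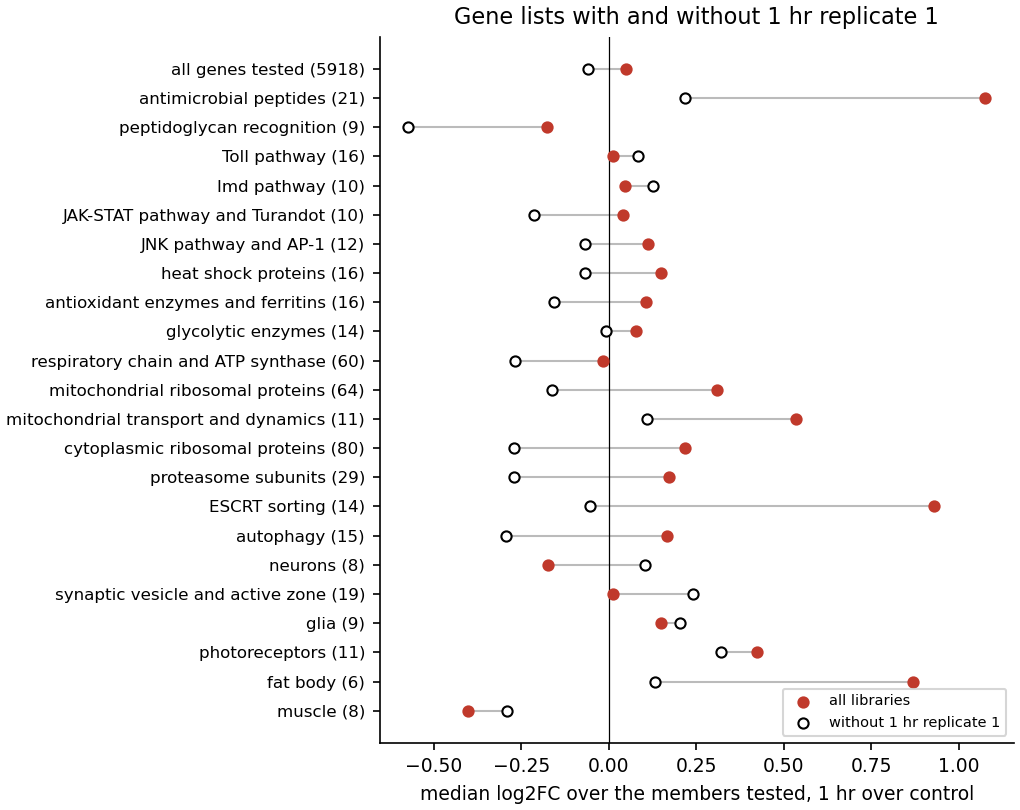
Median log2FC at 1 hr of gene lists, with the number of members tested in parentheses, over all libraries (red) and without 1 hr replicate 1 (open). The median of the immune peptide genes went from 1.07 to 0.22 and that of the ESCRT genes from 0.93 to -0.05 when that library was left out, and that of all genes from 0.05 to -0.06.

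Mitochondrial genes gave scattered differences. Of 64 mitochondrial ribosomal protein genes tested 38 were positive (59.4%, against 53.2% of all genes) and the median log2FC was 0.31. In this list 2 genes were higher, against 1.39% of all genes, and 0 lower. These were mRpL46, with 0, 2 and 0 reads in controls and 57, 0 and 1 at 1 hr, and mRpL39, with 0 reads in controls and 18, 0 and 0 at 1 hr. Their reads at 1 hr thus came nearly all from replicate 1. Without it mRpL46 was at 1.39, against 3.94 with all libraries, mRpL39 could not be tested, and the median of the list was -0.16 without that library. Of 60 genes of the respiratory chain and ATP synthase 0 passed, with 27 positive and a median of -0.02. Without 1 hr replicate 1 the median was -0.27, with 15 of the 60 positive and 1 lower. SdhA, the flavoprotein subunit of succinate dehydrogenase, was at 15.4, 14.3 and 0 CPM in controls and at 118, 29.9 and 8.46 CPM at 1 hr, a log2FC of 2.18 (SE 1.05), or 0.35 without 1 hr replicate 1. It was 2.26 and past the threshold without 2 hr replicate 2 and 4 hr replicate 2 in the fit.

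Genes of mitochondrial transport and quality control had mostly positive values. Of 11 tested, 0 passed and 9 were positive (81.8%, against 53.2% of all genes). The median was 0.54, or 0.11 without 1 hr replicate 1, where 7 of 11 were positive. aralar1, which exchanges aspartate for glutamate across the inner membrane, was at 23.2, 7.17 and 0 CPM in controls and at 40.4, 29.9 and 25.4 CPM at 1 hr, without overlap (log2FC 1.49, SE 1.01). colt, a carnitine carrier, was at 23.2, 18.3 and 15.2 CPM and then at 40.4, 44.9 and 25.4 CPM, also without overlap (log2FC 0.90, SE 0.779). Over all genes tested, 3.3% were higher at 1 hr without overlap. In control replicate 3 aralar1 had no read, and 15.2 CPM of colt was the worth of 1 read. The floor of that library, 45.6 CPM, lay above every 1 hr level of both genes, so neither separation was well measured. Pink1, the kinase that marks damaged mitochondria, had a log2FC of 1.35 (SE 0.678), and 1.24 without 1 hr replicate 1. Among 14 glycolytic enzymes 0 passed, and the gene of smallest p was Pgk, phosphoglycerate kinase, with a log2FC of 1.39 (SE 0.710), or 0.54 without that library. Pink1 (1.53) and Pgk (1.46) were past the threshold without 2 hr replicate 2 and 4 hr replicate 2 in the fit.

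Stress genes gave 0 calls among 16 heat shock proteins, 12 JNK and AP-1 genes and 16 antioxidant enzymes and ferritins, with median log2FCs of 0.15, 0.11 and 0.11. These medians were -0.07, -0.07 and -0.16 without 1 hr replicate 1, over 16, 11 and 16 genes. Hsc70-5, the mitochondrial chaperone mortalin, was at 50.2, 29.5 and 60.8 CPM in controls and at 170, 44.9 and 110 CPM at 1 hr (log2FC 1.36, SE 0.679), and it was at 0.87 without 1 hr replicate 1 and at 1.5, past the threshold, without 2 hr replicate 2 and 4 hr replicate 2 in the fit. Hsp27, a small heat shock protein, was lower without overlap, at 100, 63.0 and 91.1 CPM and then at 52.0, 29.9 and 25.4 CPM (log2FC -1.17, SE 0.995). It was 1 of the 16 heat shock genes to separate downward, against 3.8% of all genes tested. Its level in 1 hr replicate 2 lay under the floor of 44.9 CPM. Atf3, an immediate stress factor of the AP-1 family, was at 27.0, 36.7 and 30.4 CPM and then at 57.7, 59.8 and 55.0 CPM, a log2FC of 0.85 (SE 1.05). It had 55 reads over the controls and 97 at 1 hr. Since 1 read was worth 15.2 CPM in control replicate 3 and 15.0 CPM in 1 hr replicate 2, its levels there rest on few reads. The level in control replicate 3 lay under the floor of 45.6 CPM, so the closeness within each group was not well measured. Jra, the fly Jun, had 0, 13 and 0 reads and then 67, 1 and 0, and its log2FC of 2.05 became -0.40 without 1 hr replicate 1.

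The 8 neuronal genes had 0 calls and a median log2FC of -0.17, or 0.10 without 1 hr replicate 1. With all libraries 3 of the 8 had a positive value. The positive ones were CadN (0.51), Appl (0.38) and elav (0.05, or -0.034 with library size alone as scaling). para, the voltage-gated sodium channel, was at 433, 406 and 425 CPM in controls and at 215, 194 and 376 CPM at 1 hr, lower in every brain (log2FC -0.68, SE 1.06). From other lists, Syn, synapsin, was at 92.7, 80.5 and 106 CPM and then at 55.6, 44.9 and 59.2 CPM (log2FC -0.76, SE 0.601), and nAChRalpha7, a nicotinic receptor subunit, at 247, 293 and 213 CPM and then at 144, 89.7 and 182 CPM (log2FC -0.84, SE 0.734). The groups of para, Syn and nAChRalpha7 did not overlap, as was so in the lower direction for 3.8% of all genes tested. In 1 hr replicate 2 the level of Syn stands for 3 reads. Of the 19 synaptic vesicle and active zone genes 10 were positive, and their median was 0.01. Of the 9 nicotinic receptor subunits 5 were positive, with a median of 0.29, and either list had 0 calls. The 2 medians were both 0.24 without 1 hr replicate 1, over 19 and 8 genes.

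Of 9 glial genes tested, 1 was higher, against 1.39% of all genes, and 0 lower, with a median log2FC of 0.15. alrm, an astrocyte gene, had 1, 8 and 0 reads in controls and 30, 2 and 4 at 1 hr, or 3.86, 6.38 and 0 CPM against 21.7, 29.9 and 16.9 CPM (log2FC 2.16, SE 0.963), and the same log2FC of 2.16 without 1 hr replicate 1, where it was no longer past the threshold. repo, the transcription factor of nearly all glia, had 2, 1 and 0 reads and then 18, 3 and 6, or 7.72, 0.797 and 0 CPM against 13, 44.9 and 25.4 CPM (log2FC 3.09, SE 1.55). Neither gene overlapped between the groups, as was so in the higher direction for 3.3% of all genes tested. The highest 1 hr level of both was in replicate 2, where it stands for 2 and 3 reads. Control replicate 3 had no read of either gene, and its floor of 45.6 CPM lay above all their 1 hr levels, so the separation was not well measured. Gs2, the abundant glial glutamine synthetase, was at 1336, 1015 and 1094 CPM in controls and at 782, 1391 and 1654 CPM at 1 hr. The 9 glial genes summed to 1789 to 2024 CPM in controls and 1534 to 2254 CPM at 1 hr (exact permutation test, two-sided, p = 0.8). The 11 photoreceptor genes had 0 calls and a median of 0.42.

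A list of genes named for injured females in the study was chosen on these samples, so its direction is not independent evidence. Of its 24 genes 18 were tested, 1 was higher (mop) and 0 lower, 17 were positive and the median log2FC was 1.37. The median was 1.16 with genes unread in a whole group set at their bound, and 0.22 over 17 genes without 1 hr replicate 1. tau, the microtubule-binding protein of axons, had a log2FC of -0.35 (SE 0.985). Appl, the fly amyloid precursor-like protein, was at 1178, 653 and 942 CPM in controls and at 262, 1212 and 2144 CPM at 1 hr, with 1 hr brains on both sides of the controls (log2FC 0.38, SE 0.953).

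The most abundant transcripts that were higher by unadjusted p were MRE16 and a yolk protein. MRE16 was at 19633, 10600 and 15600 CPM in controls and at 219211, 43259 and 18629 CPM at 1 hr (log2FC 2.62, SE 0.872), and at 1.01 without 1 hr replicate 1. Yp2, made in the fat body and the ovary of females, was at 684, 135 and 547 CPM in controls and at 9352, 1092 and 241 CPM at 1 hr (log2FC 2.99, SE 1.18), and at 0.54 without it. Yp1 and Yp3 had log2FCs of 2.09 and 1.66, and 0.04 and 0.22 without it. The groups overlapped for all 4 transcripts, with replicate 3 at 1 hr within the range of the controls. The part of the yolk protein and MRE16 reads in the other differences was not tested.

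At 2 hr, 1 brain held far more immune peptide transcripts than any brain at 1 hr. Between 2 hr and 1 hr, 0 of 5918 genes passed the adjusted test and 132 passed the unadjusted one (2.23%), 120 of them higher at 2 hr (2.03%) and 12 lower (0.203%). The smallest adjusted p in that edgeR fit was 0.999. Of the 21 immune peptide genes tested 17 were higher at 2 hr and 0 lower, with a median log2FC of 3.79 against -0.01 for all genes. Mtk was at 187, 10218 and 340 CPM at 2 hr (log2FC over 1 hr 4.58, SE 1.22), and AttC was at 28.9, 7419 and 126 CPM (6.07, SE 1.68). In each the 2 hr replicate 2 library was far above the others, and it held 230734 CPM of immune peptide transcripts against 13094 and 19005 CPM in the other 2 hr brains. Its neuronal genes summed to 317 CPM, against 3989 and 2660 CPM in the other 2 hr brains, and its fat body genes to 33440 CPM, against 4904 and 5851 CPM. Of that fat body sum the yolk protein Yp1 was 17239 CPM, while Lsp2 was at 497 CPM, against 1214 and 647 CPM in the other 2 hr brains. The 2 hr replicate 2 library was also 1 of the libraries with low roX1, and the part of these in the result was not tested. Without 2 hr replicate 2 and 4 hr replicate 2, 0 of 18 immune peptide genes passed, and the median was 0.33. Of 11 photoreceptor genes 3 were higher at 2 hr and 0 lower, and without those libraries the numbers were the same. ninaE, the main rhodopsin of the outer photoreceptors, was at 782, 703 and 592 CPM at 1 hr and at 873, 4888 and 2632 CPM at 2 hr (log2FC 2.01, SE 0.634).

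rept was read again at the later times. It was at 10.2, 46.2 and 22.8 CPM at 2 hr and at 16.5, 32.3 and 7.63 CPM at 4 hr, after 0 reads in the 3 brains at 1 hr. It was named for its lack of reads at 1 hr, so these levels are a description. CG34353 showed the same order of levels, with 8.51, 22.6 and 14 CPM at 2 hr and 11, 5.17 and 11 CPM at 4 hr. CHMP2B, CG1441 and CG2453, by contrast, were also read in every brain at 2 and 4 hr. CHMP2B was at 28.9, 133 and 16.9 CPM at 2 hr and at 8.27, 24.6 and 27.1 CPM at 4 hr, and its log2FC of 2 hr over 1 hr was 0.49 (SE 1.08). Between 4 hr and 1 hr, 0 genes passed the adjusted test and 62 the unadjusted one (1.05%), 51 of them higher at 4 hr (0.862%) and 11 lower (0.186%), with 0 of the 21 immune peptide genes among them. The gene of smallest p there was Irk2, an inward rectifier potassium channel chosen after its values were seen, with a log2FC of 2.26 (SE 0.630).

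The 1 hr change was also set against that of the male-labelled brains. In a fit of all 24 libraries, 0 of 5462 genes differed in their 1 hr change between the sex labels at an adjusted p under 0.05, and 94 did so at the unadjusted threshold (1.72%), 67 with a larger log2FC in female-labelled brains (1.23%) and 27 with a smaller one (0.494%). CHMP2B was read in every male-labelled brain, at 7.28 to 28 CPM in controls and 26 to 36.2 CPM at 1 hr, where the female-labelled controls had no read. CG1677 was at 23.9 to 74.6 CPM in male-labelled controls and at 75.9 to 88.9 CPM at 1 hr, higher in every brain where the female-labelled ones were lower (male-labelled log2FC 0.76), with a difference in log2FC of -2.26 (SE 0.652). Sh was at 92.4 to 204 CPM and then at 200 to 229 CPM in male-labelled brains, with a difference of -1.35 (SE 0.580). CHMP2B, CG1677 and Sh were named for female-labelled groups that did not overlap. The difference between labels uses those same values again, so for these genes it is a description. The male-labelled libraries held 72792 to 527464 counts in controls and 564267 to 1119538 at 1 hr. The sex labels themselves did not match roX1, so the difference between labels is not shown to be one between sexes.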

How the data were processed

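The deposited table holds counts of reads per gene, which the authors made with CASAVA 1.8.2, STAR 2.4 and HTSeq against the dm3 build. The sources used here give neither the version of HTSeq nor its strand mode, so reads of overlapping and antisense genes may not be told apart. Each library is 1 brain, and p-values measure the spread between libraries. No libraries were identical, and 0 columns were left unused. The authors' 6 comparison tables hold their fold changes and p-values and were not used. In total 16866 symbols matched RefSeq names.

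edgeR 4.0.16 in R 4.3.3 was run on the counts of the 12 female-labelled libraries, with TMM scaling, its default filter on low counts, the quasi-likelihood test and Benjamini-Hochberg adjustment. The difference between sex labels was fitted on all 24 libraries. List sums were compared by exact permutation in R, and the counting intervals were made with scipy 1.17.1. The code was tested on simulated data. Alternatives used DESeq2 1.42.0, limma 3.58.1, other scalings, filters and library sets, thinning, and a replicate block. Members, lists and tests were chosen with earlier results of these data known. The genes named were, in each direction, those of smallest p without overlap, those of largest log2FC without overlap at 100 CPM or more, those of smallest p in each of 37 lists, genes the study names, the most abundant genes, and sex label genes. Gs2, ninaE and Irk2 fall outside these and were chosen after their values were seen.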

Additional observations from a re-analysis of the deposited data

How the results depend on the processing

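With 3 libraries a group, the shallowest of 52388 counts, differences of genes with few reads were not measurable. No gene passed the adjusted test under any alternative run for the 1 hr comparison except the fit with no filter on low counts, which called 2 (MRE16 and Yp2), and the cause of this difference was not tested. That fit called 32 genes between 2 hr and 1 hr.

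The genes higher and lower by unadjusted p, 82 and 16 with the reported fit, numbered 190 and 24 with no filter, 5 and 4 with at least 10 counts in 3 of the 6 libraries, 40 and 7 in edgeR's exact test, 142 and 33 in its likelihood ratio test, 36 and 6 with only the 6 libraries compared, and 121 and 38 with all 24. They were 119 and 28 without 2 hr replicate 2 and 4 hr replicate 2, 4 and 0 after thinning to equal depth, and 12 and 1 at p under 0.01. Of the calls 83.7% were higher with the reported fit. limma-voom gave 101 and 92 at equal weights (52.3% higher) and 77 and 67 with sample weights (53.5%), and without 1 hr replicate 1 the share was 36.4%. The newer quasi-likelihood method, chosen after seeing the data, gave 157 and 40, and leaving MRE16 out of the counts, also chosen after seeing them, gave 85 and 16. With each library left out, the higher genes ranged from 20 to 160 and the lower from 7 to 50. DESeq2 gave 78 and 15. The number of genes tested also differed, so these counts are not of the same genes. Against 5918 in the reported fit it was 9919 with no filter, 2920 with at least 10 counts, 2676 with the 6 libraries and 5462 with all 24. It was 4726 without 2 hr replicate 2 and 4 hr replicate 2, and 1493 after thinning.

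The unadjusted counts of the other comparisons also moved. Between 2 hr and 1 hr they were 363 with no filter, 225 in DESeq2, 46 without 2 hr replicate 2 and 4 hr replicate 2, and 114 to 362 with each 1 hr library left out, against 132. Between 4 hr and 1 hr they were 212 with no filter, 100 in DESeq2 and 74 to 228 with each 1 hr library left out, against 62. For the sex labels they were 321 with no filter, 242 without 2 hr replicate 2 and 4 hr replicate 2, and 87 to 270 with each female-labelled control or 1 hr library left out, against 94. The cause of each was not tested.

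The log2FC changed sign for Mtk with library size alone (-0.10), with voom sample weights (-0.19) and with a library left out (-0.26 to 0.46). It also changed sign for Appl (-0.32 with voom at equal weights, -0.37 to 0.86 with a library left out), Gs2 (-0.024 with voom at equal weights, -0.31 after thinning, -0.11 to 0.41 with a library left out) and roX1 (0.038 with voom sample weights, -0.37 to 0.013 with a library left out). Thinning gave -1.07 for Rel, -0.049 for Yp3 and -0.19 for ninaE, elav was at -0.034 with library size alone and ranged from -0.24 to 0.36 with a library left out, and Jra ranged from -0.40 (without 1 hr replicate 1) to 7.14 with a library left out.

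The replicate numbers were not shown to pair the samples, since the deviations of same-numbered control and 1 hr libraries correlated at -0.07, -0.10 and 0.09. With the replicate number as a block, 89 genes were higher and 15 lower by unadjusted p at 1 hr, and 0 passed after adjustment. With the block 87 genes differed between 2 hr and 1 hr, and the log2FC of Mtk was -0.072.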
